A study of Mus musculus with 26 samples.

Results

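The genes described here encode the replication-dependent histones, the linker histone H1 and the core histones H2A, H2B, H3 and H4 that package DNA as it is copied. They were taken as every probe set (a group of array probes that reads 1 stretch of a transcript) whose annotated symbols all begin with Hist1h, Hist3h or the newer H1f, H2ac, H2bc, H3c and H4c. This gave 57 of the 65535 probe sets in the table: 13 of H1, 10 of H2A, 21 of H2B, 4 of H3 and 9 of H4. They name 45 symbols, of which 44 were matched to current RefSeq symbols of the GRCm38.p6 assembly, 41 on chromosome 13 and 3 on chromosome 11, and Hist1h2ap was not matched. Of the 57 probe sets 35 carry 1 symbol and 22 carry several, up to 12, so that a value of the latter cannot be assigned to any of the near-identical genes it names. The table may not hold every gene of the family. Statements on a histone class below therefore cover these 57 probe sets alone.

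Expression was measured in 26 samples of CD31+/CD146+ endothelial cells sorted from female mice. MCA313 tumours grew in PIG-Pdgfb-Cre-IFNγ-del mice, in which endothelial cells alone express the receptor for interferon gamma (IFNγ) and the Pdgfb promoter drives Cre, and the endothelium was taken without induction (0 h, 3 arrays) or after the tumour cells had produced IFNγ for 24 h or 48 h (2 arrays each). Mice with J558L tumours were Rag-/-, that is without mature T and B cells, and carried the receptor on all cells. Endothelium came from the tumour before induction (0 h, 2 arrays) and once the tumour cells had made an IFNγ-GFP fusion for 24 h (3 arrays), and from the kidney at 0 h and 24 h (3 arrays each). Tumours of the line 16.113, also in Rag-/- mice, were sampled 120 h after transfer of tumour-specific T cells that were IFNγ+/+ (3 arrays) or IFNγ-/- (5 arrays). The mice were 4 to 6 months old, or 3 to 4 months for 16.113.

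As a class, transcripts of such genes rise when a cell enters S phase and are removed when DNA synthesis ends. Their messenger RNAs typically end in a conserved stem-loop rather than a poly(A) tail. This sets the class apart from the replacement histones made throughout the cell cycle. Members were taken by symbol, so single members may depart from this, and Hist3h2bb-ps is a transcribed pseudogene. In endothelium, which is mostly quiescent in adult organs and divides where vessels grow, their RNA is commonly read together with other S-phase genes. In sorted bulk samples fewer cells in S phase and less histone RNA per cell cannot be told apart. The labelling used random primers, so transcripts without a poly(A) tail could be read.

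The sorted cells expressed Pecam1, which encodes CD31, at 13.46 to 13.99 on the log2 scale in all 26 arrays, with changes of -0.12 to -0.04 in the 5 comparisons of exposed with control endothelium. Ifi205, an interferon-inducible gene, was higher in every exposed array than in any control array of its comparison and passed the test in all 5 (adjusted p 6.06e-05 to 0.0275). Of 5 check genes (Pecam1, Ifi205, Irgm1, Igtp and Irf1) only Ifi205 passed in the MCA313, J558L tumour and kidney comparisons, while 4 passed in 16.113. The values fall into 4 separately normalized sets (16.113, MCA313, and J558L tumour and kidney), and all tests were made within a set or on differences formed within sets. Within a group the lowest correlation between arrays over all probe sets was 0.847, among the 16.113 samples with IFNγ+/+ T cells. Each change is the difference of group means in log2 units ± its standard error, the p is adjusted over the 65535 probe sets (limma, Benjamini-Hochberg), and a probe set passed below 0.05. The labels do not say whether replicates came from separate animals, so p-values measure only the spread between these samples.

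Promoters are shown for genes named by the probe sets that carry the differences (H2bc3, H2ac4 and H3c10). H1f2 and H4c8 are shown as well. Their probe sets 17285862 and 17285818 were higher in exposed tumour endothelium without passing the test. Other probe sets of both genes were lower in some comparisons. Each promoter is the 250 bases before the RefSeq start site in GRCm38.p6, 5′ to 3′ on the coding strand. Capitals mark matches to 4 motifs searched on both strands: the octamer ATTTGCAT bound by Oct factors, the CCAAT box (CCAAT), the TATA box (TATAAA) and the H1 box (AAACACA). No matches overlap in these promoters.
H2bc3 (Hist1h2bb, chr13:23746484-23746733, plus strand): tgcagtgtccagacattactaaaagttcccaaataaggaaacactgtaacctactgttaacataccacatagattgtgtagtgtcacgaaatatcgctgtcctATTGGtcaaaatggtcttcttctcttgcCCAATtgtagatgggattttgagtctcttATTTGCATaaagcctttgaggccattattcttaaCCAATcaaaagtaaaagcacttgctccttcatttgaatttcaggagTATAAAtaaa
H2ac4 (Hist1h2ab, chr13:23750838-23751087, plus strand): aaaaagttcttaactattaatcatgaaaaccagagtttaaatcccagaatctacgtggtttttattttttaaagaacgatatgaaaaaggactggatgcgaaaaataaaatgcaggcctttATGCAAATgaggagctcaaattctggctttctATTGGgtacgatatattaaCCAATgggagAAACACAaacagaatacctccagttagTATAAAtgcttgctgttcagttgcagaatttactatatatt
H3c10 (Hist1h3h, chr13:21717378-21717627, plus strand): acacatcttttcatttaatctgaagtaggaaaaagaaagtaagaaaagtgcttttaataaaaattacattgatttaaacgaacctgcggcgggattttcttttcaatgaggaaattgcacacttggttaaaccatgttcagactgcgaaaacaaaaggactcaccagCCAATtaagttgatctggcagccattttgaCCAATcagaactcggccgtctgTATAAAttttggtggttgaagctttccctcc
H1f2 (Hist1h1c, chr13:23738557-23738806, plus strand): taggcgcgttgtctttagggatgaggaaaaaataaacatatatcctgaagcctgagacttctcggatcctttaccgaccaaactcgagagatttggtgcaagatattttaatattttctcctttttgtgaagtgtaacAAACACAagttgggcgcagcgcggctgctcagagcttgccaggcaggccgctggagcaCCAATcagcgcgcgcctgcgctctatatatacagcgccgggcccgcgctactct
H4c8 (Hist1h4h, chr13:23530794-23531043, plus strand): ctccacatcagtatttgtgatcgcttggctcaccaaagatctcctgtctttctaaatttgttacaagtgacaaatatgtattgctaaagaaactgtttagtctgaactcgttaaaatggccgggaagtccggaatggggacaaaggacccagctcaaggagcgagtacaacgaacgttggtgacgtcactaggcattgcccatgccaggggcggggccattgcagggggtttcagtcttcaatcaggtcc

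A promoter entry was found for 41 of the 45 symbols (42 entries). The octamer stood in 11 of the 42 promoters (26.2%), 6 of 13 of H2A and 5 of 15 of H2B, beside 1.6% of 32851 promoters of the same length. In H2bc3 its first base lies 90 bases before the start site, and in H2ac4, where it is written on the other strand, 129 bases. CCAAT was present in 36 of 42 (85.7% beside 33.8% of all promoters), in all of H1, H2A, H2B and H3 but in 1 of 7 of H4. TATAAA was present in 20 (47.6% beside 12.4%) and the H1 box in 6 (14.3% beside 6.25%), 3 of them among the 4 promoters of H1. The window of H4c8 holds none of these letters. A match describes the sequence and says nothing on binding in these cells.

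The 57 probe sets spanned nearly the whole range of levels. Their mean percentile within an array ran from 2.16 to 99.3, and 19 lay above the 50th percentile, the lowest of these being Hist1h1a at 50.4 and the highest of the others Hist1h2bm at 44.2. This split was made after the values were seen and serves as a description only. The brightest of H2A was probe set 17285705 with 12 H2A symbols, at a mean log2 value of 12.57. Second in percentile came the brightest of H4, 17285708, with 7 H4 symbols, followed by 17285712, with 12 H2B symbols. The brightest of H3 (17285682, with Hist1h3h, Hist1h3a, Hist1h3i and Hist1h3g) and of H1 (17285862, Hist1h1c) had mean log2 values of 10.03 and 9.97. These probe sets differ in sequence, so the values do not rank the genes.

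**Figure D1:**
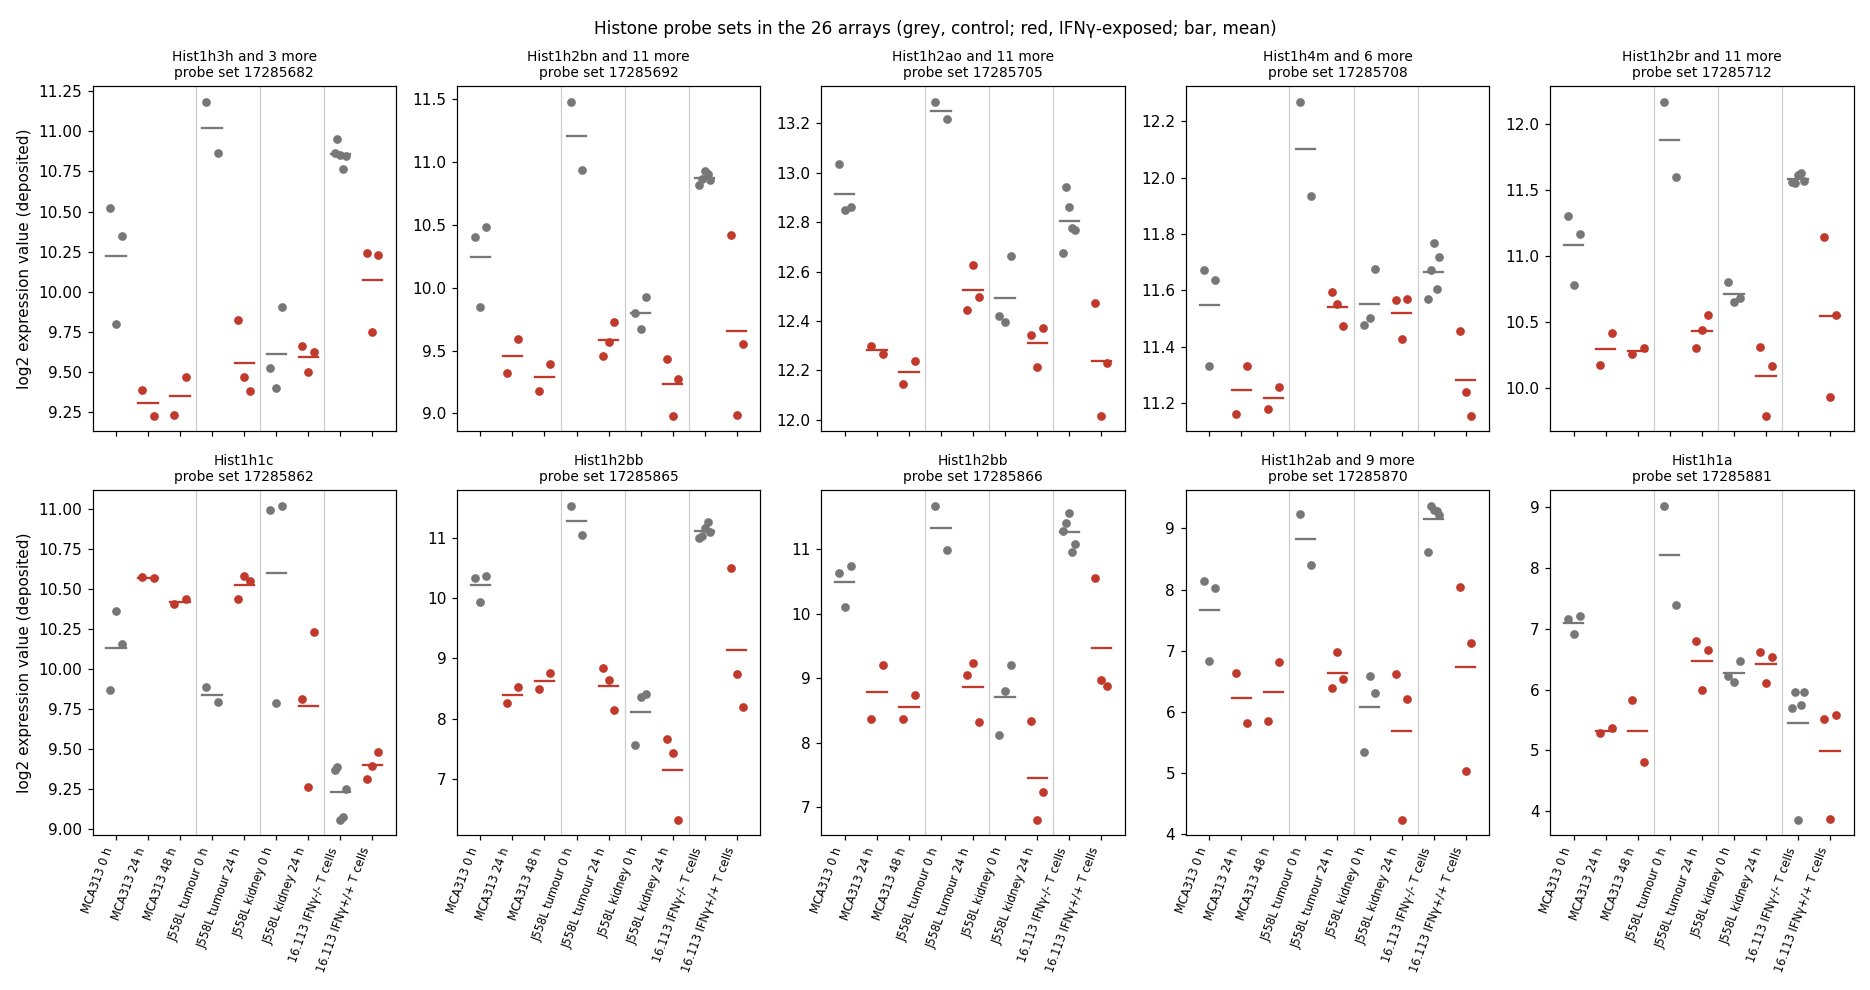
Deposited log2 values (y axis) of the 10 named histone probe sets above the 50th percentile in each of the 26 arrays, by group (x axis). Points are arrays (grey, control; red, exposed to IFNγ), short bars are group means and vertical lines separate the normalized sets. For Hist1h2bb (17285865) all exposed tumour arrays lie below the controls of their set, whereas for Hist1h1c (17285862) the exposed MCA313 and J558L tumour arrays lie above them.

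In J558L tumours, 24 h of IFNγ-GFP was followed by lower values of H2B and H3 probe sets. Of the 57 members 4 fell and none rose, beside 0.0229% of all probe sets that fell, 0.0687% that rose and 0.0916% that changed in either direction. Hist1h2bb, now H2bc3 and the gene of the first promoter shown, encodes a core H2B. Its probe set 17285865 read 11.55 and 11.05 at 0 h and 8.85, 8.64 and 8.14 at 24 h. The groups were far apart, with no exposed array within 2 log2 units of a control. It fell by 2.76 ± 0.48, 6.75-fold (adjusted p = 0.0259). A neighbouring probe set of the same gene, 17285866, read 11.67 and 10.98 and then 9.05, 9.23 and 8.32, a change of -2.46 ± 0.49 (adjusted p = 0.0593). A further probe set of the gene, 17285864, at a mean percentile of 51.8, changed by 0.11, so that the probe sets of Hist1h2bb did not all move together.

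The remaining 3 that fell carry several symbols. The H3 probe set 17285682 read 11.18 and 10.86 at 0 h and 9.83, 9.47 and 9.38 at 24 h. It fell by 1.46 ± 0.24, 2.76-fold (adjusted p = 0.0198). The H2B probe sets 17285692 and 17285712 name the same 12 H2B genes and so may read the same transcripts. The former read 11.48 and 10.93 and then 9.46, 9.57 and 9.73, and fell by 1.62 ± 0.31 (adjusted p = 0.0452). The latter read 12.17 and 11.60 and then 10.31, 10.44 and 10.55, and fell by 1.45 ± 0.28 (adjusted p = 0.0492). In each the lowest control lay more than 1 log2 unit above the highest exposed array.

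Other members were lower without passing the test. The H2A probe set 17285870, which names Hist1h2ab and 9 more H2A genes, read 9.24 and 8.40 at 0 h and 6.39, 6.98 and 6.54 at 24 h, a change of -2.18 ± 0.71 (adjusted p = 0.52). The brightest, 17285705 of H2A, read 13.29 and 13.22 and then 12.45, 12.63 and 12.50, a change of -0.73 ± 0.19 (adjusted p = 0.244). Over all 57 members the median change was -0.19 beside -0.02 for all probe sets, and 12 lay below -1 (background 4.64%). With a filter that keeps probe sets above the 50th percentile in at least 2 arrays the median was -0.73. A probe set can pass this filter through control arrays alone, which favours members that are high in controls. No median of all probe sets filtered likewise was made, so filtered medians here and below are not read as larger falls. Groups did not overlap, with the exposed group lower, for 18 of 57 members (background 13.6%). Fibroblast markers (4 of 7 measured) had a summed level of 11.76 to 11.82 at 0 h and 11.99 to 12.27 at 24 h on the log2 scale. Their part in the result was not tested. No member kept its call in all fits with an array left out: the number called was 0 without replicate 1 of the 0 h group or replicate 2 or 3 of the 24 h group, and 1 without replicate 2 of the 0 h group or replicate 1 of the 24 h group. The J558L tumour arrays fitted alone gave 0 calls, and fits with array weights or with quantile normalization gave 8 and 2.

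In 16.113 tumours the comparison set endothelium after transfer of T cells able to make IFNγ against that after transfer of T cells without the gene. Of the 57 members 6 fell after transfer of IFNγ+/+ T cells, beside 1.24% of all probe sets that fell and 2.02% that changed in either direction, and none rose (background 0.777%). They were the 4 that fell in J558L tumours and 17285866 and 17285870. Hist1h2bb (17285865) read 11.01, 11.04, 11.17, 11.27 and 11.11 with IFNγ-/- T cells and 10.51, 8.74 and 8.19 with IFNγ+/+ T cells. All exposed arrays were lower, and replicate 1 lay nearest to the controls. The change was -1.98 ± 0.39, 3.93-fold lower (adjusted p = 0.0100).

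The second probe set of Hist1h2bb, 17285866, read 11.28, 11.40, 11.55, 10.96 and 11.08 and then 10.55, 8.98 and 8.87, and fell by 1.79 ± 0.39 (adjusted p = 0.0208). The H2A probe set 17285870 read 8.61, 9.37, 9.31, 9.28 and 9.22 and then 8.04, 5.03 and 7.12, and fell by 2.43 ± 0.57 (adjusted p = 0.0298). Here the exposed arrays spread over 3 log2 units. The H2B probe sets 17285712 and 17285692 fell by 1.04 ± 0.22 (adjusted p = 0.0179) and 1.22 ± 0.25 (adjusted p = 0.0123). In 17285712 the controls lay between 11.56 and 11.63 and the exposed arrays read 11.15, 9.93 and 10.55. The H3 probe set 17285682 read 10.87, 10.95, 10.85, 10.76 and 10.85 and then 10.24, 9.75 and 10.23, and fell by 0.78 ± 0.19 (adjusted p = 0.0407). The groups did not overlap.

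Over all 57 members the median change in 16.113 was -0.16 beside -0.01 for all probe sets. With 1 value per gene from its brightest probe set, which leaves out the probe sets of several symbols and keeps 14 genes, the median was 0.22, and with the 50th percentile filter it was -0.38. Without overlap, the exposed group was lower for 10 of 57 members (background 3.6%), all of them among the 19 brighter ones (background among brighter probe sets 5.04%), and higher for none (background 2.75%). Markers of other cells differed as well, the last 2 lists with overlap: the summed level of myeloid markers (2 of 7 measured) was 10.02 to 11.18 with IFNγ-/- and 9.36 to 9.85 with IFNγ+/+ T cells, that of B and plasma cell markers (2 of 8) 9.22 to 10.31 and 8.40 to 9.23, and that of fibroblast markers (4 of 7) 12.34 to 12.85 and 11.55 to 12.61. No marker passed the test, no marker of these lists was listed at 0, and their part in the result was not tested. The number of members called was 9 without replicate 1 of the IFNγ+/+ group, 1 without replicate 2 and 0 without replicate 3, and it was 0 with array weights or with the 16.113 arrays fitted alone.

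In MCA313 tumours, where endothelial cells alone could respond, the same probe sets lay lower at both times, but none of them passed the test. At 24 h, 0 of 57 members passed in limma (0.136% of all probe sets did, 0.0183% lower), and at an unadjusted p under 0.05 there were 9 lower (background 4.54%) and 2 higher (background 3.82%). Hist1h2bb (17285865) read 10.34, 9.94 and 10.38 at 0 h, 8.26 and 8.53 at 24 h and 8.49 and 8.76 at 48 h. Both time points lay below every control by over 1 log2 unit. The changes were -1.83 ± 0.48 (adjusted p = 0.172) and -1.59 ± 0.48 (adjusted p = 0.233). These comparisons share their 3 control arrays. The summed levels of the marker lists of other cell types overlapped between 0 h and both times.

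Probe set 17285866 of the gene changed by -1.70 ± 0.49 at 24 h and -1.93 ± 0.49 at 48 h. The H3 probe set 17285682 read 10.52, 9.80 and 10.35, then 9.39 and 9.23, then 9.23 and 9.47, with changes of -0.92 ± 0.24 and -0.87 ± 0.24 (adjusted p = 0.172 in each). Hist1h1a, now H1f1, a linker histone gene, read 7.16, 6.91 and 7.22 at 0 h, 5.28 and 5.37 at 24 h and 5.83 and 4.81 at 48 h. The groups did not overlap, and the changes were -1.77 ± 0.58 and -1.78 ± 0.58 (adjusted p = 0.32 and 0.277). In J558L tumours Hist1h1a changed by -1.73 ± 0.58, and in 16.113 by -0.46 ± 0.47.

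At 48 h 1 of 57 members passed and it rose (background 0.247% in either direction, 0.165% higher). This was a dim probe set of Hist1h1d, 17285833, at a mean percentile of 8.7, which read 2.15, 2.40 and 2.12 at 0 h, 2.16 and 2.82 at 24 h and 4.32 and 4.79 at 48 h. It rose by 2.33 ± 0.41 (adjusted p = 0.0150), from values near the lowest of the array, and the call was lost without replicate 1 of the 0 h group or either replicate of the 48 h group, and also in a fit of the MCA313 arrays alone. The brighter probe set of Hist1h1d, 17285831, changed by 0.01. Among the largest changes were also Hist1h2bk (17285745) at -2.59 ± 1.21, where 0 h arrays spread from 2.98 to 6.71, and at 24 h the H2B probe set 17285714 at 1.80 ± 0.63. Between 48 h and 24 h, 0 of 57 members passed in limma (background 0.0061%), with 1 lower (background 2.75%) and 1 higher (background 2.63%) at an unadjusted p under 0.05. The median changes at 24 h and 48 h were -0.10 and -0.07, beside -0.03 for all probe sets at each time. They were 0.0067 and 0.032 with the brightest probe set of each gene, so their direction was not kept, and -0.30 and -0.33 with the 50th percentile filter. Groups did not overlap downward for 14 (background 14.7%) and 18 (background 15.1%) of the 57.

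**Figure D2:**
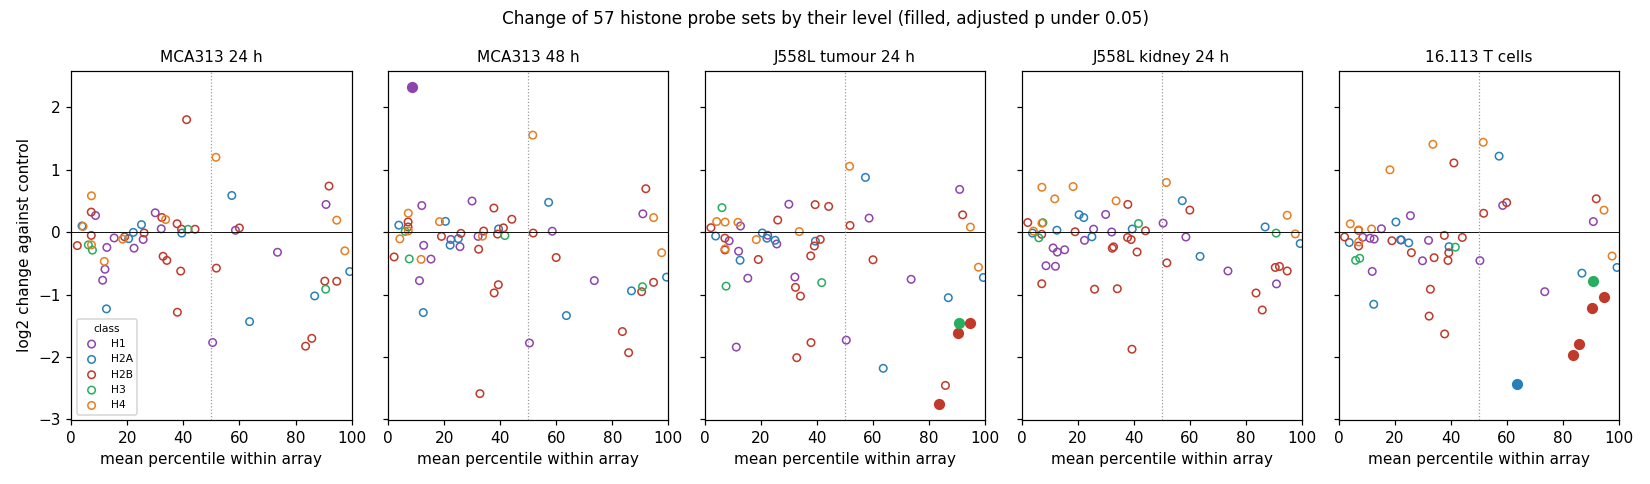
Log2 change against control (y axis) of the 57 histone probe sets plotted against their mean percentile within an array (x axis), 1 panel for each comparison. Colours give the histone class and filled points passed at an adjusted p under 0.05. The 4 points filled in J558L tumours and the 6 in 16.113 lie to the right of the 50th percentile, and the point filled at 48 h in MCA313 lies at 8.7.

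In kidney endothelium of the J558L-bearing mice 0 of 57 members passed in limma, where 0.89% of all probe sets did (0.356% lower), and 5 were lower (background 5.25%) and 1 higher (background 4.64%) at an unadjusted p under 0.05. Hist1h2bb (17285865) read 7.57, 8.36 and 8.40 at 0 h and 7.66, 7.43 and 6.32 at 24 h, and the groups overlapped. The change was -0.98 ± 0.43 (adjusted p = 0.447). The H3 probe set 17285682 read 9.52, 9.40 and 9.91 and then 9.66, 9.50 and 9.62, a change of -0.02 ± 0.22. The largest change was that of 17285837, which names several H2B genes, at -1.88 ± 1.07 with arrays at 24 h spread from 3.19 to 6.68. The median change was -0.03 beside -0.01 for all probe sets (-0.24 with the 50th percentile filter and 0.066 with the brightest probe set of each gene), and the exposed group was lower without overlap for 6 of 57 (background 8.84%). The summed level of B and plasma cell markers (2 of 8 measured) was 9.01 to 9.55 at 0 h and 8.54 to 8.81 at 24 h, and the pericyte marker measured (1 of 6) lay at 11.65 to 11.86 and then 11.09 to 11.15. No marker passed the test, and their part in the result was not tested. None of the 8 listed kidney epithelium markers had a probe set of its own symbol in the table.

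The response of tumour minus that of kidney was tested directly. In limma 0 of 57 members passed (background 0.00305%), and at an unadjusted p under 0.05 there were 11 lower in tumour (background 2.15%) and 1 higher (background 2.37%). For the H3 probe set 17285682 the difference was -1.45 ± 0.33 (adjusted p = 0.296) and for Hist1h2bb (17285865) -1.78 ± 0.65 (adjusted p = 0.942). A larger fall in tumour than in kidney was thus not shown for any member. The median difference was -0.29 beside -0.01 for all probe sets, and -0.53 with the 50th percentile filter.

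Across the models, the members lower without overlap in each of MCA313 at 24 h, J558L tumour and 16.113, which share no arrays, numbered 8 of 57, beside 0.769% of all probe sets. All 8 were among the 19 brighter members, beside 1.45% of the brighter probe sets, and no member was higher in all 3 (background 0.688%). They were the H3 probe set 17285682, the H2B probe sets 17285692, 17285712, 17285865 and 17285866, and the H2A probe sets 17285705, 17285870 and 17285820. They carry 6 different sets of symbols, and the 3 with 1 symbol read Hist1h2bb (2 probe sets) and Hist1h2af. Hist1h2af (17285820, named after its values were seen) read 9.79, 9.27 and 9.89 at 0 h and 8.60 and 8.66 at 24 h in MCA313, 10.58 and 10.07 and then 9.26, 9.12 and 9.43 in J558L tumours, and 9.57, 9.42, 9.60, 9.67 and 9.76 and then 9.35, 8.42 and 9.07 in 16.113. No probe set of H1 or H4 was among the 8.

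Other brighter members did not follow. Hist1h1c (17285862), a linker histone gene whose promoter is shown as H1f2, read 9.87, 10.36 and 10.16 at 0 h, 10.57 and 10.57 at 24 h and 10.41 and 10.44 at 48 h in MCA313, and 9.89 and 9.79 and then 10.44, 10.59 and 10.55 in J558L tumours. The exposed arrays were higher in both without passing, with changes of 0.44 ± 0.31, 0.29 ± 0.31 and 0.68 ± 0.31. In kidney the change was -0.83 ± 0.28 and in 16.113 0.17 ± 0.25. The difference of tumour and kidney was 1.51 ± 0.42 (adjusted p = 0.576). Another probe set of Hist1h1c, 17285861, changed by -0.32, -0.78, -0.76, -0.62 and -0.95 in MCA313 at 24 h and 48 h, J558L tumour, kidney and 16.113, against the direction of 17285862 in the tumours.

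The members that follow, apart from the brightest of H4, were chosen after their values were seen. Hist1h4h (17285818), an H4 gene whose promoter is shown as H4c8, had changes of 1.20 ± 0.88, 1.55 ± 0.88, 1.05 ± 0.88, 0.80 ± 0.79 and 1.44 ± 0.71 in the same order, none past the test. Its controls in 16.113 ran from 3.14 to 7.07. A dim probe set of Hist1h4h, 17285816, changed by -0.47, -0.44, 0.16, 0.53 and 0.05. In MCA313 its exposed arrays lay below all controls at both times. The H2B probe set 17285854 (Hist1h2bc, Hist1h2bg and Hist1h2be) changed by 0.74 ± 0.30, 0.70 ± 0.30, 0.28 ± 0.30, -0.55 ± 0.27 and 0.53 ± 0.24. Hist3h2a, an H2A gene on chromosome 11, changed by 0.59 ± 0.46, 0.48 ± 0.46, 0.88 ± 0.46, 0.50 ± 0.41 and 1.22 ± 0.37 (adjusted p = 0.0938 in 16.113). The brightest of H4, 17285708, changed by -0.30 ± 0.19, -0.33 ± 0.19, -0.56 ± 0.19, -0.03 ± 0.17 and -0.38 ± 0.15.

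**Figure D3:**
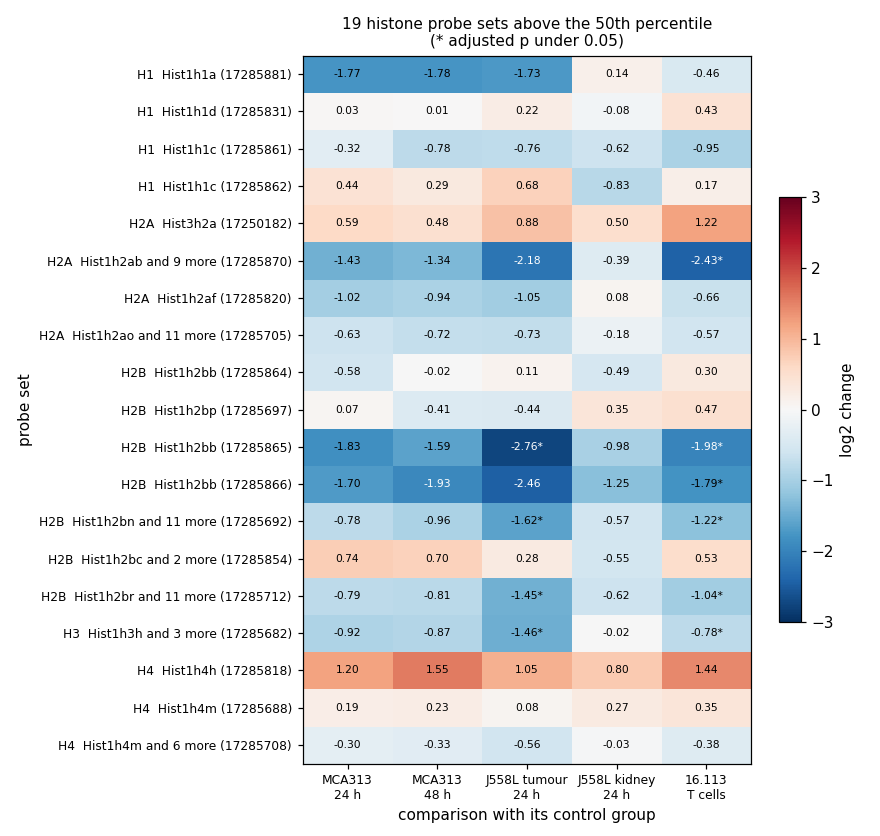
Log2 change (colour and printed value) of the 19 histone probe sets above the 50th percentile (rows, by class) in the 5 comparisons with a control group (columns). An asterisk marks an adjusted p under 0.05, as for the 4 in J558L tumours and the 6 in 16.113, and the rows of Hist1h4h and Hist3h2a are positive in all 5, as is that of Hist1h4m (17285688).

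Genes that act with histone synthesis were counted from lists, with the brightest probe set standing for a gene. A gene counts as measured where the table holds a probe set with its symbol alone. Most listed genes had none, so the table may not cover all genes, and the counts do not stand for whole lists. Shares of all probe sets, here and above, refer to the probe sets of this table. Of 53 S-phase genes 13 were measured. In MCA313 at 24 h and 48 h, J558L tumour, kidney and 16.113, 12, 12, 12, 10 and 11 of them were lower. Of all probe sets 52.4%, 52.2%, 51.8%, 50.8% and 51.2% were lower. The medians of the S-phase genes were -0.74, -0.71, -1.11, -0.19 and -1.09. The test was passed in 16.113 alone, where 5 fell (background 1.24%) and 1 rose (background 0.777%). Cdc6, which loads the replicative helicase, fell by 2.83 ± 0.42 (adjusted p = 0.00114). Dtl fell by 3.35 ± 0.67, Rrm2, a subunit of ribonucleotide reductase, by 1.94 ± 0.42, the helicase subunit Mcm6 by 1.09 ± 0.24 and Rpa1, which binds single-stranded DNA, by 1.00 ± 0.20. Timeless, a replication fork protein gene, rose by 0.88 ± 0.19 at its brightest probe set, while 13 of its 29 probe sets were lower. In J558L tumours the largest changes of the list were Exo1 at -2.61 ± 0.55 and Prim1 at -2.20 ± 0.53, neither past the test.

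Of 30 mitosis genes 11 were measured, and 7, 8, 10, 5 and 8 of them were lower in the same order of comparisons, with medians of -1.18, -0.99, -1.21, 0.04 and -0.90. The shares of all probe sets that were lower are those given with the S-phase genes. In J558L tumours 1 passed the test (background 0.0229% lower) and in 16.113 2 did (background 1.24% lower), all lower. Others lay the other way without passing, among them Aspm at 0.51 ± 0.60 and Cenpf at 0.32 ± 0.32 in MCA313 at 24 h and Kif14 at 0.44 ± 0.30 in 16.113 (picked once their values were known). Fbxo5, which restrains the anaphase-promoting complex, fell by 2.57 ± 0.41 in J558L tumours (adjusted p = 0.0135). In 16.113 Top2a, the topoisomerase of chromosome condensation, and Birc5, a subunit of the chromosomal passenger complex, fell by 3.15 ± 0.55 and 3.11 ± 0.63. Top2a read 11.52, 12.35, 12.41, 11.83 and 11.78 with IFNγ-/- and 10.94, 7.47 and 8.07 with IFNγ+/+ T cells. Replicate 1 of the exposed group again lay nearest to the controls, as it did for Hist1h2bb.

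Genes for making and handling histone RNA and protein were counted in the same way. Of 27 genes of histone transcription and 3′ end processing 7 were measured (among them Lsm11, Cpsf2 and Cpsf3, and Cdk2, which is also in the S-phase list), and none passed in any comparison, with medians between -0.19 and 0.09 in the 5 comparisons. Of 26 histone chaperone genes 6 were measured. Nap1l1, which carries H2A and H2B, fell by 0.98 ± 0.24 in 16.113 (adjusted p = 0.0358, background 1.24% lower). No other chaperone gene passed in these comparisons, and the medians were -0.20, -0.23, -0.16, 0.03 and -0.11. Of 20 replacement histone genes, which are transcribed outside S phase, 4 were measured (H3f3b, H2afz, H2afv and H2afy2), and none passed, with medians between -0.17 and 0.10.

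**Figure D4:**
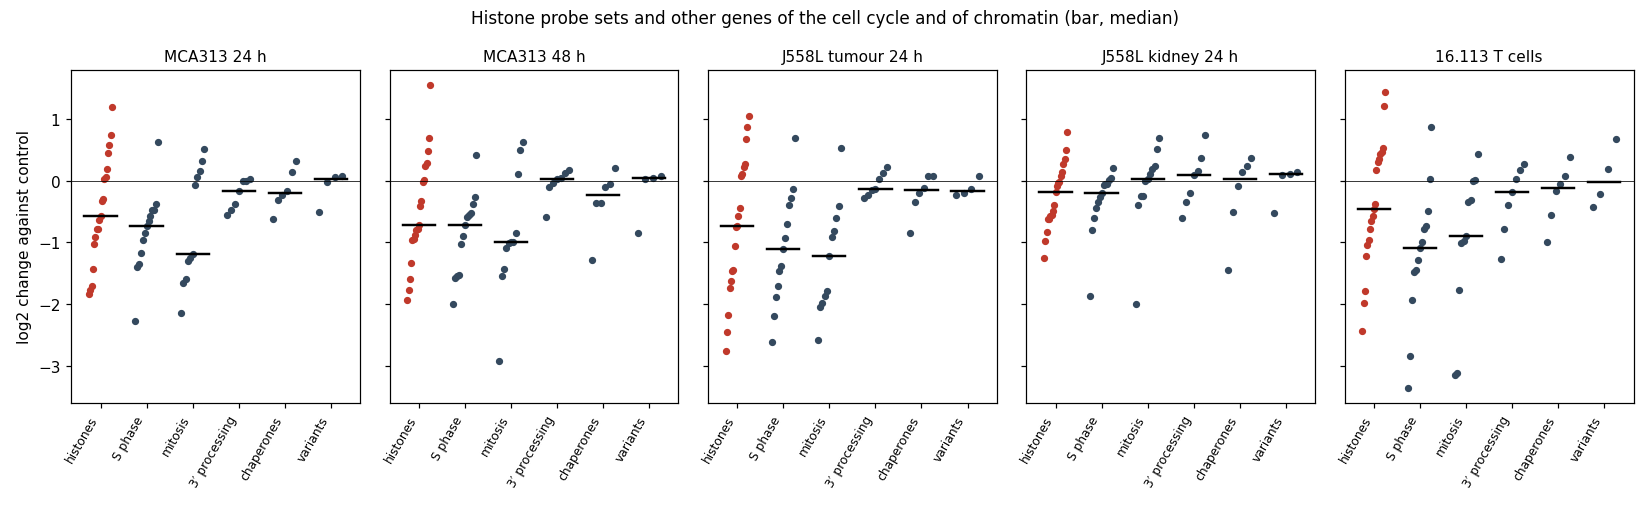
Log2 change against control (y axis) of the 19 brighter histone probe sets (red) and of genes of 5 other lists (dark, brightest probe set of each gene), 1 panel for each comparison. Points are probe sets in order of their change and bars are medians; the S-phase median is -1.11 in J558L tumour and -0.19 in kidney, and those of the replacement variants lie between -0.17 and 0.10.

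Levels in kidney and J558L tumour endothelium can be set side by side only as ranks within an array, because the sets were normalized separately, and no test was made. By percentile, every kidney array lay above every J558L tumour array for 4 of 57 members (5.59% of all probe sets) and below for 6 (6.01%). The widest gap, chosen after the values were seen, was that of 17250165, which names Hist3h2ba and Hist3h2bb-ps of chromosome 11. It stood at the 69.8 to 89.5 percentile in kidney, at 9.72 to 14.6 in J558L tumours, and at no more than 23.6 in any tumour array. Hist1h2bb (17285865) had mean percentiles of 95.2 in J558L tumours at 0 h and 76.0 at 24 h, and of 72.3 and 60.7 in kidney.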

How the data were processed

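Endothelial RNA (about 500 pg from 5000 to 15000 sorted cells) was amplified over 12 cycles with an Affymetrix kit for picogram inputs (WT Pico), per the labels' protocols. The deposited values are log2 expression values per probe set, and the submitters' processing notes name Affymetrix Expression Console and limma without versions. The normalization method, background correction and build are not given in the sources used here. Exact values recurred within 4 sets of arrays (5.4 to 37.4% of values) and almost never between them (at most 0.00305%), which is taken as separate normalization.

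A model of 9 group means was fitted to all 26 arrays and all 65535 probe sets without a filter (limma 3.58.1, R 4.3.3, moderated two-sided test, Benjamini-Hochberg at 0.05), so that every member was tested. The spread was estimated over all groups, since some have 2 arrays, and the number of arrays limits the precision. Members named by rule are those past the test against a control group, the 3 largest changes of each such comparison and the brightest probe set of each class. Others are further probe sets of a named gene, were flagged for an array that stood apart, or were picked once their values were known. Lists were counted in full and named for genes past the test or the 2 largest changes. Members and lists were chosen with earlier results of these data known. Alternatives were filters, quantile normalization, a variance prior with trend, array weights, a replicate block (statmod 1.5.0), the arrays of the compared set alone, 1 value per gene, members with 1 symbol, and leaving out each array. The procedure was tested on simulated data.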

Additional observations from a re-analysis of the deposited data

Results flagged for a closer look

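Among the 16.113 samples with IFNγ-/- T cells, a group of 5, an array stood apart from the other 4 by more than Dixon's 95% limit for 4 of the 57 histone probe sets, 2 of them among the 14 chosen for naming by rule. Replicate 1 read 8.611 for the H2A probe set 17285870 (Hist1h2ab and others), below the other arrays at 9.22 to 9.37. Replicate 3 read 3.861 for Hist1h1a (17285881), whereas the other arrays lay between 5.70 and 5.97. The remaining pair were dim: replicate 5 read 2.16 for 17285690 (Hist1h4m), below the others at 2.41 to 2.48, and replicate 4 read 5.68 for the H2A probe set 17285679, above the others at 3.68 to 4.12. By chance about 1 in 20 probe sets would show such an array in this group, and 4 of 57 is near that share. The share over all probe sets was not counted.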

How the results depend on the processing

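No result turned its direction while past the threshold, and the cause of the changes below was not tested. At 24 h in MCA313 the members called were 1 with a variance prior with trend and 2 with the mean of a gene's probe sets. At 48 h they were 2 with either of these, and 0 with the 50th percentile filter, the replicate block, the MCA313 arrays alone or the brightest probe set of each gene (0 to 1 with an array left out). In J558L tumours they were 2 with quantile normalization, 8 with array weights, 0 with the replicate block or the set alone, and 1 with the brightest probe set or members of 1 symbol (0 to 1 with an array left out). In kidney they were 0 to 1 with an array left out. In 16.113 they were 0 with array weights, the replicate block or the set alone, 2 with the brightest probe set (1 up, 1 down) or members of 1 symbol, and 3 with the mean (0 to 9 with an array left out).

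Median changes with the 50th percentile filter were -0.30 and -0.33 in MCA313 at 24 h and 48 h, -0.73 in J558L tumour, -0.24 in kidney and -0.53 for tumour minus kidney, and with the 75th percentile filter -0.48, -0.75, -0.74, -0.47 and -0.67, and -0.61 in 16.113. Both filters can admit a probe set through control arrays alone, and no median of all probe sets filtered likewise was made. With the brightest probe set of each gene the median was 0.22 in 16.113, and 0.0067, 0.032 and 0.066 in MCA313 at 24 h and 48 h and in kidney. With an array left out the median over all 57 members ran from -0.258 to -0.0680 in MCA313 at 48 h and from -0.0746 to 0.0564 for 48 h minus 24 h. Of the single probe sets, 84 results kept their side of the threshold with an array left out and 42 lost their call; for the other settings 111 were the same, 30 were weaker and 5 were stronger. Where an array left out leaves 1 in its group, that array is assumed to vary like the other groups. Same-numbered samples did not deviate together (24 pairs, correlations from -0.0559 to 0.0392, none over 0.1), so the replicate numbers were not taken as pairs. The arrays carry no measure of background here, so values near the lowest of an array may hold little signal.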
